A study of Saccharomyces cerevisiae with 21 samples.

Results

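The 10 genes described here encode the silencing and telomere chromatin proteins of budding yeast, and they were taken by gene name from a table of 6407 genes. They are SIR1, SIR2, SIR3, SIR4, RAP1, RIF1, RIF2, HST1, SAS2 and DOT1, and each was found as 1 gene with a level above the filter in every comparison. Polyadenylated RNA was sequenced from Saccharomyces cerevisiae of the W303 background, a common laboratory strain, in 21 libraries that fall into 7 genotypes with 3 libraries each. The study compared mutants of Swi/Snf, the complex that moves and evicts nucleosomes with the ATPase Snf2 and the scaffold subunit Swi3. All cells were grown in the rich medium YPD to mid-log phase, and per the labels the replicates of a genotype were collected on separate days.

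The first family of 3 genotypes shares a deletion of the chromosomal SWI3 gene. It is written swi3[delta]; SWI3::LEU2 for the wild type, called SWI3 here, swi3[delta]; swi3-E815X::LEU2 for the allele swi3-E815X, and swi3[delta]; LEU2 for the deletion, called swi3del. The second family of 4 genotypes shares a deletion of SNF2. It is written snf2[delta]; SNF2::LEU2 for the wild type, called SNF2, snf2[delta]; snf2-W935R::LEU2 and snf2[delta]; snf2-Q928K::LEU2 for a pair of SNF2 alleles, and snf2[delta]; LEU2 for the deletion, called snf2del. Both wild types are therefore deletion strains that carry a copy of the gene with LEU2, a marker of leucine synthesis. The labels do not say how many clones stand behind a genotype, or give the mating type.

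In budding yeast, silent chromatin covers the HML and HMR mating-type cassettes, the chromosome ends and, in another form, the ribosomal DNA. Rap1 binds the telomere repeats, the silencers of the mating cassettes and the promoters of many highly expressed genes. At telomeres it recruits either Sir3 and Sir4, which spread along the chromosome with the deacetylase Sir2, or Rif1 and Rif2, which limit telomere length. Sas2 and Dot1 put acetyl and methyl groups on histones outside silent chromatin and so help to set where it ends.

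SWI3 RNA checked the SWI3 labels, with a mean of 37.1 TPM in SWI3, 35.5 TPM in swi3-E815X and 0.127 TPM in swi3del. TPM is a level per length of transcript, scaled to the same nominal total in each library. SNF2 RNA was not analysed here, so the SNF2 labels were not checked in this way. LEU2 is named in all 7 genotypes, but its RNA was at 136 TPM in swi3del and 151 TPM in snf2del and at or below 0.552 TPM in each of the other libraries. The deposited values sum to between 960811 and 1000396 TPM in a library, with 6311 to 6393 genes at 1 TPM or more, and the number of reads behind them is unknown. The 7 a-specific genes, expressed by cells of mating type a, summed to between 854 and 1281 TPM in every library. The alpha-specific genes summed to between 26.9 and 79.2 TPM. Only 3 of the 6 listed alpha-specific names were measured, so these sums cover unequal numbers of genes. A deletion also moved the scale: the median of all genes was 0.23 higher on the log2 scale in swi3del and 0.26 higher in snf2del than in the wild type of the same family, and 0.10 higher in snf2-Q928K. Changes are therefore also given relative to the median gene where this matters.

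In the SWI3 wild type the members spanned from 8.35 TPM for SIR1 to 75.4 TPM for HST1, where the median gene with at least 1 TPM was at 39.4 TPM. SIR1 stood at percentile 10.4 of genes and RIF2 at percentile 12.1. RAP1 and HST1 stood at percentiles 60.3 and 70.0, and the other members lay below the median gene. Among the structural Sir proteins, SIR2 RNA was the most abundant per length, at 31.9 TPM against 15.7 TPM for SIR3 and 19.2 TPM for SIR4.

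**Figure D1:**
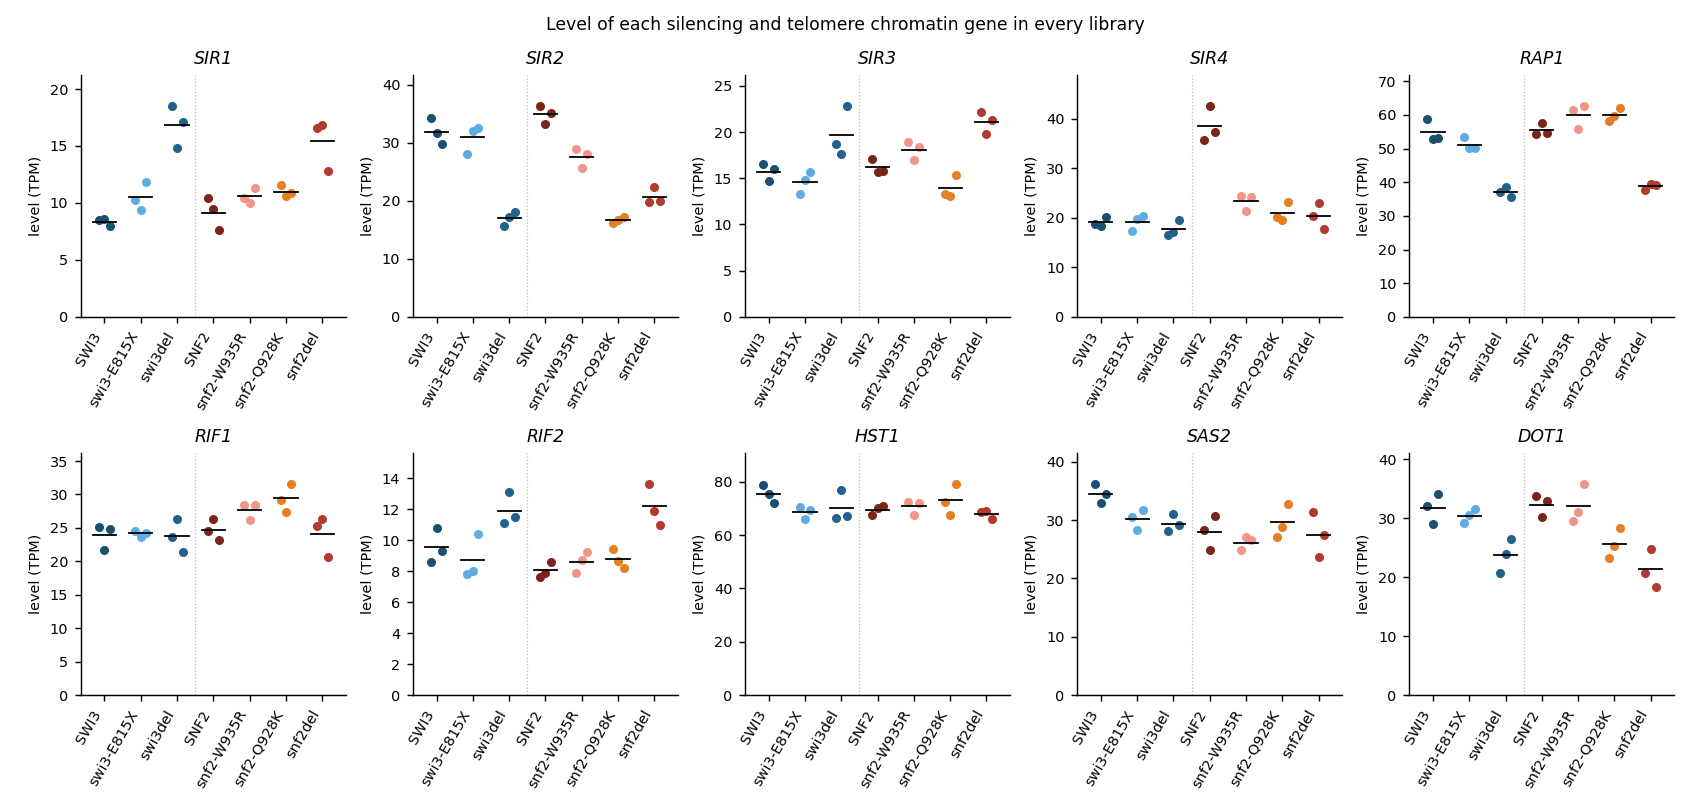
Level in TPM (y axis, from 0) of each of the 10 genes in every library, by genotype (x axis), where a dot is a library and a bar is the mean of 3 libraries. SIR2 and RAP1 are lower in both deletions, SIR1 is higher in both, and SIR4 stands between 35.7 and 42.5 TPM in the SNF2 wild type and at or below 24.3 TPM in every other library.

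The start regions of SIR2, RAP1 and SIR1 are shown because their RNA changed in both deletions, and that of SIR4 because its RNA differed between the wild types. Each runs from 250 bases before to 50 bases after the first base of the coding sequence, 5′ to 3′ on the strand of the gene, read from the R64 genome of RefSeq. Capitals mark the start codon and, in SIR4, a match to the Abf1 consensus. SIR2 is on the minus strand of chromosome IV, at chrIV:378396-378695, RAP1 on the plus strand at chrXIV:241439-241738, SIR1 on the plus strand at chrXI:640290-640589 and SIR4 on the plus strand at chrIV:917321-917620.
SIR2: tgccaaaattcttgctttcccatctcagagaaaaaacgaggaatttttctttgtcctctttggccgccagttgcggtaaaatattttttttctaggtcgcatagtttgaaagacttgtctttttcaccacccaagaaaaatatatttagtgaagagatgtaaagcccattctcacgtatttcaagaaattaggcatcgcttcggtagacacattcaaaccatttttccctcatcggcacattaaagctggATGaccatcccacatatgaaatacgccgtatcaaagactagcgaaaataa
RAP1: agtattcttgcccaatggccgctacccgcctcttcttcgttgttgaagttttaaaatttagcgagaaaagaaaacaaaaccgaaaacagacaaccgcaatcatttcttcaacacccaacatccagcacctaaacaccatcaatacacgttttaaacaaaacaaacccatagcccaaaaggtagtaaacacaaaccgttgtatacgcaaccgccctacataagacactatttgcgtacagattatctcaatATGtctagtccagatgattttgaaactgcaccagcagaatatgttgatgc
SIR1: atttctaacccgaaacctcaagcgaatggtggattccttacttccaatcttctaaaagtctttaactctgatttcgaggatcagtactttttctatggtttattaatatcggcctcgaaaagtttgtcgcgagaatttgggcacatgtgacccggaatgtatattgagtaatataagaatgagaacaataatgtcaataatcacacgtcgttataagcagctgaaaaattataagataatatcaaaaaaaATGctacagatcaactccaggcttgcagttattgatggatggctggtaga
SIR4: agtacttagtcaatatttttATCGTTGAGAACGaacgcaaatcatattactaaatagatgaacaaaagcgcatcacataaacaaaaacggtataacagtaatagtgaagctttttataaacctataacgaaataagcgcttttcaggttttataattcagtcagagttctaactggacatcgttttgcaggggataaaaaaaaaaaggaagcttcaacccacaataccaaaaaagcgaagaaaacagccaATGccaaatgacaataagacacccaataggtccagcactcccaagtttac
Windows of all 10 members were searched on both strands for the binding sequences of 3 general regulatory factors. The Rap1 core ACCCNNACA was in none of the 10 windows and in 2.83% of the 6001 windows of all genes. The Reb1 site TTACCCG was in none of the 10 and in 7.08% of all windows. The Abf1 consensus was in 720 of all 6001 windows and matched SIR4, at ATCGTTGAGAACG from 230 to 218 bases before the start, and HST1, on the opposite strand from 63 to 51 bases before the start. Each of these windows matched 1 motif only, so no matches overlap.

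SIR2, the NAD-dependent histone deacetylase of silent chromatin (YDL042C, chromosome IV), fell in both deletions and in both SNF2 alleles. SIR2 was at 34.2, 31.6 and 29.8 TPM in the SWI3 libraries and at 15.7, 17.2 and 18.1 TPM in the swi3del libraries. SIR2 was at 36.3, 33.3 and 35.2 TPM in SNF2 and between 19.8 and 22.3 TPM in the 3 libraries of snf2del. In each family every deletion library was below every wild-type library, with no overlap.

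On the log2(TPM + 1) scale the SIR2 level fell by 0.87 ± 0.09 (SE, n = 3 and 3) in swi3del, with an adjusted p of 4.89e-06 from limma, and by 0.73 ± 0.08 in snf2del, with an adjusted p of 8.85e-07. A gene is said here to have changed, risen or fallen where the p of limma's moderated test, adjusted over all genes tested, was under 0.05. Relative to the median gene the SIR2 falls were larger, -1.10 and -0.99. The difference between these effects was 0.14, with a 95% interval from -0.10 to 0.38, and did not pass the test at an adjusted p of 0.643.

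In snf2-Q928K, SIR2 was at 16.1, 16.6 and 17.2 TPM, below every snf2del library. The fall from SNF2 was 1.03 ± 0.08 on the log2 scale, a level 0.49 times that of the wild type, with an adjusted p of 7.25e-08. SIR2 in snf2-Q928K was also lower than in snf2del, by -0.30 on the log2 scale with an adjusted p of 0.00511. That call ends when libraries are scaled to the median gene, where the value is -0.16 and the adjusted p 0.0560.

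In snf2-W935R, SIR2 was at 28.9, 25.6 and 28.1 TPM, between the SNF2 and the snf2del libraries without overlap. The fall from SNF2 was 0.34 ± 0.08 with an adjusted p of 0.00625. Set against the SWI3 wild type, the fall was 0.21 and did not pass, at an adjusted p of 0.0631. In swi3-E815X, SIR2 was at 28.0, 32.1 and 32.5 TPM, which overlaps SWI3, and the difference of -0.05 had a 95% interval from -0.25 to 0.16.

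The SIR2 levels therefore ran, from the highest mean, SNF2, SWI3, swi3-E815X, snf2-W935R, snf2del, swi3del and snf2-Q928K. The difference of 0.13 between SNF2 and SWI3 did not pass (adjusted p 0.452), nor did that between SWI3 and swi3-E815X. Libraries of swi3-E815X and snf2-W935R overlap, as do those of swi3del and snf2-Q928K, and these pairs were not tested. The 0.27 by which snf2del exceeded swi3del did not pass, at an adjusted p of 0.194.

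**Figure D2:**
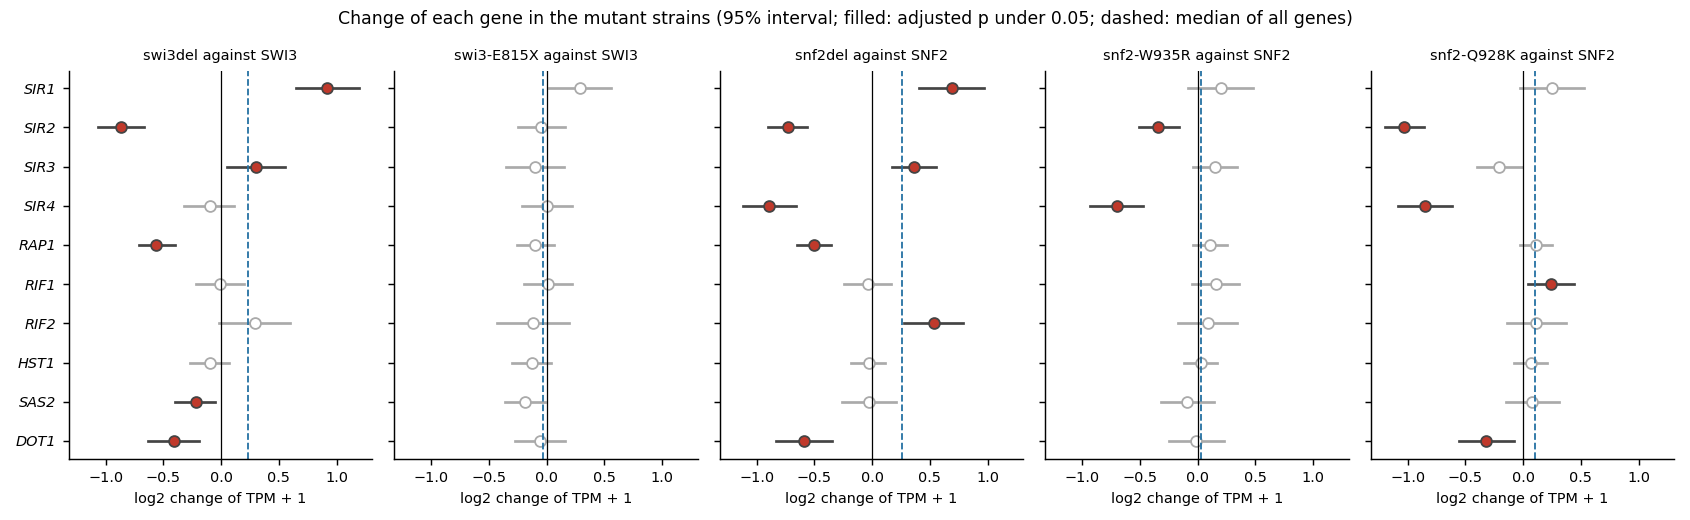
Change of each gene on the log2(TPM + 1) scale (x axis) in the 5 mutants against the wild type of their family, with its 95% interval. Filled points passed limma's test at an adjusted p under 0.05, and the dashed line is the median of all genes, at 0.23 in swi3del and 0.26 in snf2del, so that the rises of SIR3 lie near it; the SIR4 falls in the SNF2 family turn to between 0.08 and 0.27 against the SWI3 wild type.

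SIR3, the subunit that binds nucleosomes in silent chromatin (YLR442C, chromosome XII), was higher in both deletions by TPM, but close to the median gene. SIR3 was at 16.5, 14.7 and 16.0 TPM in SWI3 and at 18.7, 17.6 and 22.8 TPM in swi3del. SIR3 was at 17.1, 15.7 and 15.8 TPM in SNF2 and at 22.2, 19.8 and 21.3 TPM in snf2del. The deletion libraries were above the wild-type libraries in both families.

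The rise of SIR3 was 0.30 ± 0.11 in swi3del (adjusted p 0.0317) and 0.36 ± 0.09 in snf2del (adjusted p 0.00218). With libraries scaled to the median gene these become 0.08 (adjusted p 0.539) and 0.11 (adjusted p 0.184). In swi3del the call was lost without SWI3 replicate 2, SWI3 replicate 3 or swi3del replicate 3, with values from 0.19 to 0.37 over the 6 libraries left out in turn. In snf2-Q928K, SIR3 was at 13.3, 13.1 and 15.4 TPM, with a change from SNF2 of -0.21 (95% interval -0.40 to -0.01, adjusted p 0.0658) that passes without snf2-Q928K replicate 3 and under scaling to the median gene (-0.31, adjusted p 0.00282). SIR3 in snf2-Q928K was lower than in snf2-W935R by -0.36 (adjusted p 0.00569) and than in snf2del by -0.57 (adjusted p 9.13e-05).

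Ratios within a library do not depend on its scaling. The SIR2 to SIR3 ratio was 2.07, 2.16 and 1.86 in SWI3 and 0.84, 0.98 and 0.79 in swi3del. It was 2.13, 2.12 and 2.22 in SNF2 and 0.89, 1.13 and 0.94 in snf2del. The deletion libraries, at 0.79 to 1.13, lay below the wild-type libraries, at 1.86 to 2.22, with no overlap. The mean ratio was 1.52 ± 0.01 (SD, n = 3) in snf2-W935R and 1.20 ± 0.08 in snf2-Q928K, both below SNF2, and 2.11 ± 0.05 in swi3-E815X.

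**Figure D3:**
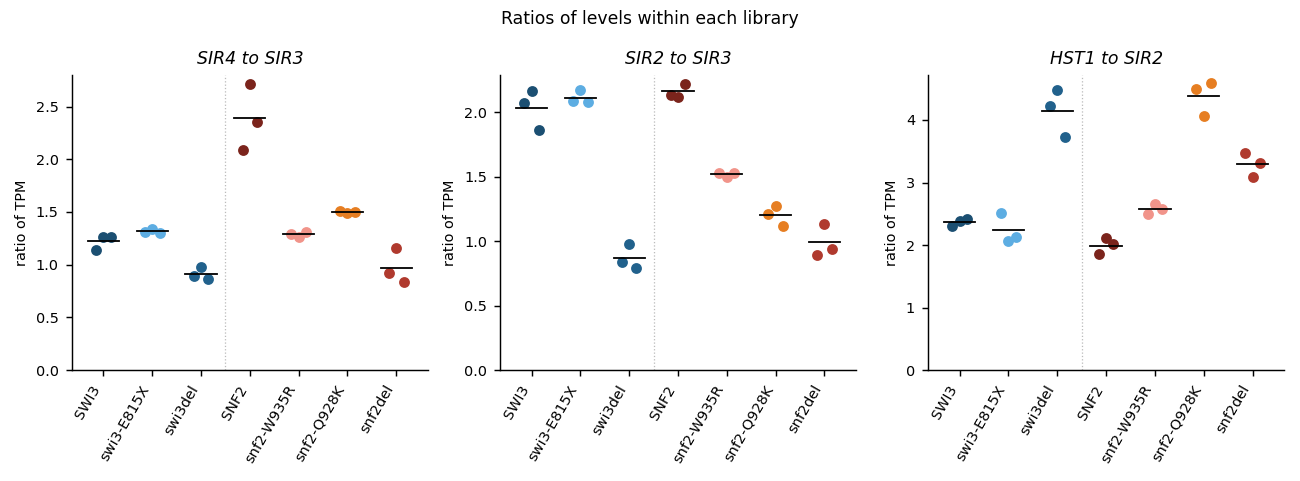
Ratios of TPM within each library (y axes, from 0) for SIR4 to SIR3, SIR2 to SIR3 and HST1 to SIR2, by genotype, where a dot is a library and a bar the mean of 3. The SIR4 to SIR3 ratio is 2.09 to 2.71 in the SNF2 wild type and at most 1.51 elsewhere, and the HST1 to SIR2 ratio is highest in snf2-Q928K and swi3del.

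SIR1, which acts at the silencers of the mating cassettes by joining Orc1 to Sir4 (YKR101W, chromosome XI, 25.3 kb from the chromosome end), rose in both deletions. SIR1 was at 8.49, 8.58 and 7.97 TPM in SWI3 and at 18.5, 14.8 and 17.1 TPM in swi3del. SIR1 was at 10.4, 9.44 and 7.60 TPM in SNF2 and at 16.6, 16.8 and 12.8 TPM in snf2del. No deletion library reached down to a wild-type library of its family.

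The rise of SIR1 was 0.92 ± 0.12 (adjusted p 3.14e-05) in swi3del and 0.69 ± 0.13 (adjusted p 2.35e-04) in snf2del, and 0.69 and 0.43 relative to the median gene. The alleles showed smaller values that did not pass: 0.29 in swi3-E815X (95% interval 0.02 to 0.56), 0.20 in snf2-W935R (-0.08 to 0.48) and 0.25 in snf2-Q928K (-0.03 to 0.53). Against the SWI3 wild type, the 0.36 of snf2-Q928K passed at an adjusted p of 0.0174. Both genes next to SIR1 rose as well, SKG1 by 1.27 and 1.28 and the flocculin gene FLO10 by 1.17 and 1.29 in swi3del and snf2del. They are named for their position and not by the rule for named genes. Of all genes, 47.4% were higher in swi3del and 50.2% in snf2del. Neighbours of other members did not all run with the member, such as SST2 next to RIF2, which was lower in both deletions.

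SIR4, the scaffold that joins Sir2, Sir3 and the telomere (YDR227W, chromosome IV), had its highest level in the SNF2 wild type. SIR4 was at 35.7, 42.5 and 37.2 TPM in SNF2 and at 18.8, 18.4 and 20.2 TPM in SWI3, although both are wild types. The difference was 0.97 ± 0.10 on the log2 scale (1.96-fold, adjusted p 1.04e-06), and SIR4 was the 1 member of 10 that differed between the wild types. In SNF2 compared with SWI3, 1.41% of the genes tested passed as higher and 2.56% as lower. The other members had 95% intervals that included 0, apart from SAS2, at -0.30 with an adjusted p of 0.0994.

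SIR4 shares this difference with the genes around it. It lies in a stretch of chromosome IV from GCD6 to EXG2, positions 884727 to 979209 of R64, that holds 48 measured genes and whose limits came from earlier results of these data. Of the 47 other genes, 43 were higher in SNF2 than in SWI3 and none was lower, with a median of 0.92. The stretch was set because its genes were higher in SNF2. Counts of its genes in comparisons that involve SNF2 follow in part from that choice and are a description. The adenylate kinase gene ADK1 differed by 0.91 and the mRNA 3′-end processing gene PCF11 by 1.01. IVY1 differed by 1.10 and COX20 by 1.24.

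The histone genes on the left of SIR4 differed less: HTB1, for histone H2B, by 0.47 (adjusted p 0.00242) and HTA1, for histone H2A, by -0.02 with a 95% interval from -0.16 to 0.12. The copy number of the stretch was not tested. Minus the median of the stretch, SIR4 was at -0.57 ± 0.12 (SD, n = 3) on the log2 scale in SWI3 and at -0.68 ± 0.16 in SNF2, which overlap.

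**Figure D4:**
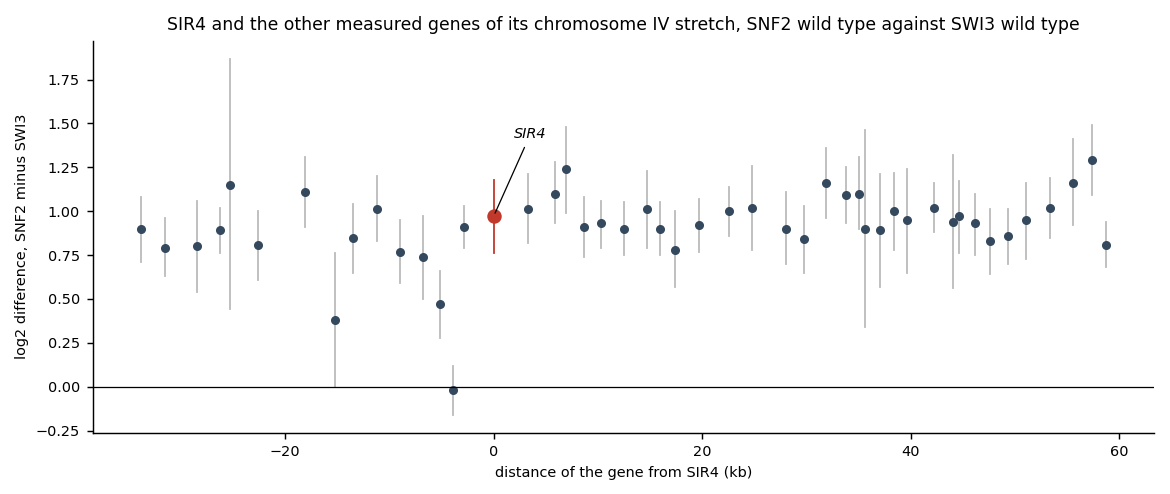
Difference between the SNF2 and SWI3 wild types on the log2(TPM + 1) scale (y axis, with 95% intervals) for SIR4 and the 47 other measured genes of its stretch, by distance of the gene's middle from that of SIR4 in kb (x axis). SIR4, at 0.97, lies among its neighbours, whose median is 0.92, and HTA1 is the point at -0.02.

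Within the SNF2 family SIR4 was lower in all 3 mutants. SIR4 was at 20.3, 23.0 and 17.8 TPM in snf2del, at 24.3, 21.4 and 24.2 TPM in snf2-W935R and at 20.1, 19.5 and 23.2 TPM in snf2-Q928K. None of these libraries reached an SNF2 library, and all were near those of SWI3. The changes from SNF2 were -0.89, -0.70 and -0.85, with adjusted p of 2.24e-06, 1.70e-04 and 9.12e-06. The stretch moved with it: 32, 42 and 42 of its 47 other genes were lower than in SNF2, with medians of -0.66, -0.92 and -0.81.

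Against the SWI3 wild type none of these SIR4 changes passed, and their sign turned: 0.08 in snf2del (adjusted p 0.495), 0.27 in snf2-W935R (adjusted p 0.0504) and 0.12 in snf2-Q928K (adjusted p 0.336). In swi3del SIR4 was at 16.6, 17.2 and 19.6 TPM, with a change from SWI3 of -0.10 (95% interval -0.32 to 0.11) that becomes -0.33 and passes (adjusted p 0.00777) under scaling to the median gene. In swi3-E815X it was at 17.4, 19.8 and 20.4 TPM, the same mean as SWI3. The effect of snf2del on SIR4 was lower than that of swi3del by -0.79 (95% interval -1.09 to -0.49, adjusted p 0.00170), where 1.42% of all genes had a higher and 0.859% a lower difference. The effects of the deletions did not differ by this test for the other 9 members, and 42 of the 47 neighbours of SIR4 had a lower difference too.

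The level of SIR4 was also set beside its neighbours, without a test. Minus the median of the stretch it was at -1.27, -1.35 and -1.11 in the swi3del libraries and at -1.11, -0.83 and -1.20 in snf2del. The values in SWI3 were -0.52, -0.71 and -0.50, with no overlap with swi3del. In SNF2 they were -0.83, -0.52 and -0.70, where the lowest lies at the highest of snf2del. With the 10 nearest neighbours on each side in place of the stretch, the means were closer, -1.11 in SWI3 against -1.33 in swi3del and -1.13 in SNF2 against -1.22 in snf2del. The snf2del libraries, from -1.44 to -0.92, then overlap those of SNF2, from -1.24 to -0.97, while those of swi3del, from -1.40 to -1.23, lie below those of SWI3, from -1.20 to -1.01.

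The SIR4 to SIR3 ratio was 2.39 ± 0.31 in SNF2 and 1.22 ± 0.07 in SWI3. It was 0.91 ± 0.06 in swi3del and 0.97 ± 0.17 in snf2del, 1.29 ± 0.03 in snf2-W935R, 1.49 to 1.51 in snf2-Q928K and 1.32 ± 0.02 in swi3-E815X. The libraries of each deletion were below those of the SWI3 wild type, except that snf2del replicate 2, at 1.16, was within their range.

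RAP1, the DNA-binding protein of telomere repeats and silencers (YNL216W, chromosome XIV), fell in the deletions and in no allele. RAP1 was at 58.8, 52.9 and 53.2 TPM in SWI3 and at 37.1, 38.5 and 35.6 TPM in swi3del. RAP1 was at 54.2, 57.7 and 54.5 TPM in SNF2 and at 37.7, 39.6 and 39.1 TPM in snf2del. The deletion libraries lay in a narrow band, 35.6 to 39.6 TPM, and every library of the other genotypes was at 50.1 TPM or more.

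The fall of RAP1 was 0.56 ± 0.07 (adjusted p 2.47e-05) in swi3del and 0.50 ± 0.07 (adjusted p 7.37e-06) in snf2del, or levels 0.68 and 0.71 times those of the wild types. Relative to the median gene the changes were -0.79 and -0.76. Their difference was 0.05, with a 95% interval from -0.14 to 0.24. In snf2-W935R and snf2-Q928K RAP1 had the same mean of 59.9 TPM, and each change from SNF2 was 0.11 (95% intervals -0.04 to 0.25 and -0.03 to 0.25). Each allele was 0.61 above snf2del. In swi3-E815X the change was -0.10 (-0.26 to 0.06).

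RIF1, which binds Rap1 at telomeres and also restrains replication origins (YBR275C, chromosome II), was at 25.2, 21.7 and 24.9 TPM in SWI3 and at 23.6, 26.4 and 21.4 TPM in swi3del. RIF1 was at 24.6, 26.3 and 23.2 TPM in SNF2, at 25.3, 26.3 and 20.7 TPM in snf2del and at 29.2, 27.4 and 31.5 TPM in snf2-Q928K. The deletions overlapped their wild types, and snf2-Q928K lay above SNF2. Its rise of 0.24 ± 0.10 passed narrowly (adjusted p 0.0441), and the call was lost without SNF2 replicate 1 or 3 or snf2-Q928K replicate 1 or 3, with values from 0.19 to 0.29, and under scaling to the median gene (0.13, adjusted p 0.178). The RIF1 changes in the deletions were -0.01 and -0.04, which become -0.24 and -0.29 and pass under that scaling (adjusted p 0.0354 and 0.00466).

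RIF2, the other Rap1-binding telomere length regulator (YLR453C, chromosome XII, 35.8 kb from the chromosome end), was the lowest-level member beside SIR1. RIF2 was at 7.63, 7.91 and 8.60 TPM in SNF2 and at 13.6, 11.9 and 11.0 TPM in snf2del. RIF2 was at 8.62, 10.8 and 9.29 TPM in SWI3 and at 11.1, 13.1 and 11.5 TPM in swi3del. In both families the deletion libraries were above the wild-type libraries. The rise of RIF2 was 0.54 ± 0.12 (adjusted p 7.93e-04) in snf2del, 0.28 of it relative to the median gene, and the 0.29 of swi3del did not pass (95% interval -0.02 to 0.60, adjusted p 0.0875). The RIF1 to RIF2 ratio fell from 3.08 ± 0.34 in SNF2 to 1.98 ± 0.19 in snf2del without overlap, and was 2.54 ± 0.47 in SWI3 and between 1.87 and 2.12 in swi3del, which overlap.

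HST1, the closest relative of SIR2, which represses middle sporulation and NAD synthesis genes with Sum1 (YOL068C, chromosome XV), passed in none of the 12 comparisons on the TPM scale. HST1 was at 78.8, 75.4 and 71.9 TPM in SWI3 and at 66.3, 77.1 and 67.3 TPM in swi3del. HST1 was at 67.4, 70.3 and 70.8 TPM in SNF2 and at 68.6, 69.0 and 66.0 TPM in snf2del. The groups overlapped in both families. Its changes in the deletions, -0.10 and -0.03, become -0.34 and -0.29 and pass under scaling to the median gene (adjusted p 0.00133 and 1.68e-04). The HST1 to SIR2 ratio rose from 2.37 ± 0.06 in SWI3 to 4.14 ± 0.38 in swi3del and from 1.99 ± 0.13 in SNF2 to 3.29 ± 0.19 in snf2del and 4.39 ± 0.28 in snf2-Q928K, with no overlap.

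SAS2, the acetyltransferase of histone H4 lysine 16 in the SAS-I complex (YMR127C, chromosome XIII), fell in swi3del, and in no other mutant set against the wild type of its family. SAS2 was at 36.1, 33.0 and 34.4 TPM in SWI3, at 28.1, 31.1 and 29.1 TPM in swi3del and at 30.6, 28.3 and 31.7 TPM in swi3-E815X. SAS2 was at 28.3, 24.8 and 30.7 TPM in SNF2 and at 31.4, 23.7 and 27.5 TPM in snf2del. In the SWI3 family the wild-type libraries stood above those of both mutants, and in the SNF2 family snf2del overlapped SNF2. The fall of 0.22 ± 0.08 in swi3del passed (adjusted p 0.0249), but the call was lost without SWI3 replicate 1 or 3 or swi3del replicate 1 or 3, with values from -0.26 to -0.19. The value in snf2del was -0.03 (95% interval -0.26 to 0.21), and -0.28 with an adjusted p of 0.0253 under scaling to the median gene.

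DOT1, the methyltransferase of histone H3 lysine 79 (YDR440W, chromosome IV, outside the stretch around SIR4), fell in both deletions. DOT1 was at 32.1, 29.0 and 34.1 TPM in SWI3 and at 20.7, 23.9 and 26.4 TPM in swi3del. DOT1 was at 33.8, 30.1 and 32.9 TPM in SNF2, at 20.7, 24.8 and 18.3 TPM in snf2del and at 23.2, 25.3 and 28.4 TPM in snf2-Q928K. All of these mutant libraries were below the wild-type libraries of their family.

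The fall of DOT1 was 0.41 ± 0.10 (adjusted p 0.00282) in swi3del, 0.59 ± 0.11 (adjusted p 2.42e-04) in snf2del and 0.32 ± 0.11 (adjusted p 0.0230) in snf2-Q928K. The last call was lost without SNF2 replicate 1 or 3 or snf2-Q928K replicate 1 or 2, with values from -0.40 to -0.26. In snf2-W935R DOT1 was at 29.5, 31.0 and 35.7 TPM, a change of -0.01 (95% interval -0.25 to 0.23). DOT1 in snf2-Q928K was 0.31 below snf2-W935R on the log2 scale (-0.31, adjusted p 0.0357), a call that was lost without snf2-Q928K replicate 1 or 2 or snf2-W935R replicate 2 or 3, with values from -0.39 to -0.23.

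Read as counts, 2 of the 10 members were higher and 4 lower in swi3del, where 47.4% of all genes were higher and 24.3% lower. In snf2del 3 were higher and 4 lower, against 50.2% and 24.6% of all genes. Under scaling to the median gene these shares became 35.9% higher and 35.7% lower in swi3del and 38.0% and 37.7% in snf2del, and the members 1 higher and 7 lower in swi3del and 2 and 7 in snf2del. In snf2-Q928K 1 member was higher and 3 lower, against 36.3% and 20.7% of all genes. Under that scaling none was higher and 4 were lower (SIR2, SIR3, SIR4 and DOT1), against 29.1% and 30.2%. In snf2-W935R none was higher and 2 were lower, against 16.3% and 10.9%. In swi3-E815X none of the 10 passed limma's test, 2 had an unadjusted p under 0.05, SIR1 and SAS2, and 3.06% of all genes were higher and 5.77% lower. The median change of the members was -0.10 in swi3del and -0.04 in snf2del, beside 0.23 and 0.26 for all genes. With SWI3 as the control of the SNF2 family, snf2del had 7 members called, 3 higher and 4 lower, with SAS2 in place of SIR4. In that comparison 50.7% of all genes were higher and 25.1% lower.

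The allele libraries were also set against the deletion of their family. In swi3-E815X against swi3del, 3 members were higher (SIR2 by 0.82, RAP1 by 0.46, DOT1 by 0.36) and 3 lower (SIR1 by -0.63, SIR3 by -0.40, RIF2 by -0.41), beside 20.9% of all genes higher and 48.0% lower. The RIF2 call was lost without swi3-E815X replicate 1 or 2 or swi3del replicate 2, with values from -0.52 to -0.34. Scaling to the median gene moved the shares of all genes to 34.1% and 33.3% and the members to 7 higher and 1 lower. It ended the SIR3 and RIF2 calls and added SIR4 (0.35), RIF1 (0.28), SAS2 (0.29) and HST1, which turned from -0.03 to 0.23.

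In snf2-W935R against snf2del, SIR2 (0.40), RAP1 (0.61) and DOT1 (0.57) were higher and SIR1 (-0.49), SIR3 (-0.21) and RIF2 (-0.45) lower, beside 23.4% and 48.5% of all genes. After that scaling 6 members were higher and none lower, beside 37.2% and 36.0%: the SIR1 (-0.27, adjusted p 0.0636), SIR3 and RIF2 (-0.23, adjusted p 0.0775) calls ended, and SIR4 (0.42), RIF1 (0.43) and HST1 (0.29) passed. The SIR3 call, with an adjusted p of 0.0490, was lost without any 1 of snf2-W935R replicates 1, 2 and 3 and snf2del replicates 1 and 3, and its value was 0.01 under that scaling, while SIR4 (0.28) and RIF1 (0.26) passed without snf2del replicate 2. In snf2-Q928K against snf2del, RAP1 (0.61) and RIF1 (0.28) were higher and SIR1 (-0.44), SIR2 (-0.30), SIR3 (-0.57) and RIF2 (-0.43) lower, beside 22.3% and 40.5%. After scaling 4 members were higher and 2 lower, beside 32.8% and 29.7%: the SIR1 (-0.30, adjusted p 0.0511) and SIR2 calls ended, and HST1 (0.25) and DOT1 (0.40) passed. The RIF1 call was lost without snf2-Q928K replicate 3 or snf2del replicate 3, with values of 0.23 and 0.18, and DOT1 passed without snf2-Q928K replicate 1 (0.33) or snf2del replicate 2 (0.37).

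Between the alleles, SIR2 (-0.69, adjusted p 1.27e-05), SIR3 and DOT1 were lower in snf2-Q928K than in snf2-W935R and no member was higher, beside 30.0% of all genes higher and 14.1% lower, or 22.9% and 21.8% after scaling to the median gene, where SIR4 was also lower (-0.24, adjusted p 0.0495). RAP1, at the same mean in both, had a 95% interval from -0.14 to 0.15 for that difference. Between the deletions, snf2del against swi3del, none of the 10 members passed limma's test and 1 had an unadjusted p under 0.05, SIR2, beside 0.343% of all genes higher and 0.109% lower.

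In the authors' deposited tables the standard errors were larger. There SIR2 had a log2 fold change of -1.14 with an adjusted p of 0.0174 in swi3del, -1.01 with 0.0258 in snf2del and -1.18 with 0.0168 in snf2-Q928K. The authors' deposited tables gave RAP1 -0.81 with 0.0216 in swi3del and -0.78 with 0.0266 in snf2del, and SIR4 -1.17 with 0.00735 in snf2del and -0.98 with 0.0414 in snf2-Q928K. No other member had an adjusted p under 0.05 in the authors' deposited tables, where SIR1 and DOT1 were at 0.330 and 0.175 in swi3del, and SIR2 and SIR4 at 0.951 and 0.347 in snf2-W935R. The authors' deposited table of snf2del stops at an adjusted p of 0.0499, and the members not listed there have no value.

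Over the 21 libraries, the genes most like each member were found by Pearson's r of log2(TPM + 1) among the 5769 other genes with a mean of at least 10 TPM. These values share libraries, genotypes and scaling, and are a description. SIR2 was most like PCL9 (r = 0.941), HO (0.940) and ASH1 (0.939), respectively a cyclin of early G1 phase, the mating-type switching endonuclease and the repressor of HO in daughter cells. SIR4 was most like SEC26 (0.961), RAD9 (0.945) and GTB1 (0.934), all on chromosome IV and in the same stretch. RAP1 was most like the exonuclease gene XRN1 (0.976), PUB1 (0.975) and the mitotic cyclin gene CLB2 (0.972).

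SIR1 was most like MSB4 (0.946), IES5 (0.942) and YLR169W (0.941), SIR3 like SET3 (0.944), NDC80 (0.940) and RPN8 (0.924), and DOT1 like the ribosome assembly genes UTP25 (0.941), UTP14 (0.932) and DBP9 (0.930). RIF1 was most like PDS5 (0.917), FIR1 (0.909) and KEL1 (0.908), and RIF2 like KEG1 (0.884), ISD11 (0.880) and YOR097C (0.869). HST1 and SAS2 had no close match: SKN7 (0.780), DPB11 (0.766) and YSP1 (0.748) for HST1, and KEI1 (0.697), SQT1 (0.695) and CNE1 (0.636) for SAS2. Among the members themselves, RAP1 and RIF2 ran most opposite (r = -0.82) and SIR2 and DOT1 most alike (0.77), while SIR2 and SIR3 had r = -0.21 and SIR3 and SIR4 r = -0.05.

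Other genes of silencing were taken from lists, and their counts stand beside 47.4% of all genes higher and 24.3% lower in swi3del and 50.2% and 24.6% in snf2del. Of 26 silencing partners, 8 were higher and 13 lower in swi3del and 7 and 13 in snf2del, with a median of -0.22 in both. Under scaling to the median gene the counts were 5 and 15 in swi3del and 3 and 15 in snf2del. In swi3del 35.9% of the whole gene set were then called higher and 35.7% lower, and in snf2del 38.0% and 37.7%. These shares are also the ones to set beside the scaled counts of the lists below in the deletions. ORC2, a subunit of the origin recognition complex that also binds silencers, fell from 38.4 to 20.3 TPM in swi3del (-0.89 ± 0.09, adjusted p 4.39e-06) and from 37.3 to 19.6 TPM in snf2del (-0.90 ± 0.09, adjusted p 4.25e-07). ABF1, a silencer-binding factor, fell from 65.8 to 36.2 TPM and from 66.4 to 40.2 TPM. UBP10, a deubiquitinase, changed by -0.50 and -0.58, and CAC2, of the chromatin assembly factor CAF-1, by 0.51 and 0.59.

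Of 9 genes of nucleolar silencing and boundaries, 1 was higher and 4 lower in each deletion, and none and 8 under scaling to the median gene. FOB1, the replication fork barrier protein of the ribosomal DNA, changed by -0.68 and -0.59, the histone variant gene HTZ1 by -0.42 and -0.33, BDF1 by -0.38 and -0.29 and CDC14 by -0.27 in both. Of 14 genes of histone marks, 4 were higher and 6 lower in swi3del and 5 and 5 in snf2del, or 3 and 8 and 3 and 9 under that scaling. BRE1, the ubiquitin ligase on which Dot1 activity depends, fell from 66.4 to 33.9 TPM and from 67.0 to 31.6 TPM (-0.95 and -1.06), and its partner gene LGE1 rose by 0.66 and 0.73. SET2 changed by -1.07 and -1.13 and ESA1 by 0.57 and 0.58.

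Of 15 telomerase and telomere capping genes, 7 were higher and 2 lower in each deletion, a share of higher calls near that of all genes, and 5 and 3 in swi3del and 6 and 3 in snf2del under scaling to the median gene. EST3, a telomerase subunit, rose by 0.85 and 0.79, YKU70 by 0.65 and 0.67 and CDC13 by 0.30 and 0.57. TBF1, a factor bound next to telomere repeats, changed by -0.71 and -0.57. The CDC13 rise in swi3del was 0.08 and did not pass under scaling to the median gene (adjusted p 0.486). Of the other sirtuins, HST2 changed by 0.32 and 0.45, HST3 by -0.44 and -0.26 and HST4 by 0.08 and 0.32, of which the HST4 values did not pass, nor HST2 in swi3del under scaling to the median gene (0.09, adjusted p 0.396). SAS4 and SAS5, the partners of Sas2, rose by 0.53 and 0.29 in swi3del and by 0.52 and 0.24 in snf2del, where the rise of SAS5 did not pass under scaling to the median gene in either (0.06 and -0.02).

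Fewer genes were called in the alleles than in the deletions, among all genes as in most of these lists. In swi3-E815X none of the 26 silencing partners, 9 nucleolar and boundary genes, 14 histone mark genes and 15 telomerase and capping genes passed limma's test. Of all genes, 3.06% were higher and 5.77% lower in that allele. In snf2-W935R 1 partner was higher and 1 lower, or 2 and 3 under scaling to the median gene, and 1 histone mark gene was lower. These stand beside 16.3% of all genes higher and 10.9% lower, or 15.4% and 14.3% under that scaling. In snf2-Q928K 4 partners were higher and 8 lower, 5 of the histone mark genes were lower and 1 higher, and all 3 other sirtuin genes were higher. Of all genes, 36.3% were higher and 20.7% lower there. Under scaling to the median gene 2 partners were higher and 15 lower, 1 histone mark gene was higher and 6 lower, and none of the 3 sirtuin genes passed. The shares of all genes were then 29.1% and 30.2%. ORC2 in snf2-Q928K, at 29.2 TPM, was lower than in SNF2 by -0.35 (adjusted p 0.00521).

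RNA of the loci that the Sir proteins silence was measured under 4 names that cannot be told apart fully. HMRA1 has the sequence of the a1 gene that cells of mating type a express from MAT, and HMLALPHA2 and MATALPHA2 share theirs, part of which is in HMRA2. HMRA1 was at 48.4, 40.4 and 49.1 TPM in SWI3 and at 120, 90.1 and 94.3 TPM in swi3del. HMRA1 was at 55.5, 43.6 and 61.7 TPM in SNF2, at 99.3, 84.2 and 76.3 TPM in snf2del and at 39.6, 44.5 and 32.6 TPM in snf2-Q928K.

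Both deletions lay above their wild types, and snf2-Q928K overlapped SNF2 by 1 library. HMRA1 rose by 1.12 (adjusted p 1.25e-05) in swi3del and by 0.69 (adjusted p 5.03e-04) in snf2del, and fell by 0.45 (adjusted p 0.0139) in snf2-Q928K. On the TPM scale HMLALPHA2, at means of 12.5 to 18.4 TPM, passed in none of these comparisons, nor did HMRA2, at 19.5 to 29.0 TPM. MATALPHA2 passed in swi3del alone (0.32, adjusted p 0.0349), and not under scaling to the median gene (0.09, adjusted p 0.507). Under that scaling MATALPHA2 (-0.35, adjusted p 0.0404) and HMRA2 (-0.37, adjusted p 0.0258) were lower in snf2-Q928K than in SNF2, and HMLALPHA2 was at -0.33 (adjusted p 0.0548). In snf2-Q928K the 3 names that hold alpha2 sequence had means of 12.5, 19.5 and 12.9 TPM, the lowest means of the 7 genotypes. The alpha-specific genes summed to 61.3 to 70.9 TPM in swi3del and 64.1 to 79.2 TPM in snf2del, against 31.8 to 34.7 TPM in SWI3 and 26.9 to 35.7 TPM in SNF2. SAG1, the agglutinin gene of alpha cells, rose by 1.14 and 1.28, and STE3, the receptor for a-factor, by 1.66 in snf2del, from 0.748 to 4.41 TPM, while its 0.60 in swi3del and both MF(ALPHA)2 values did not pass. The a-specific genes had 3 of 7 higher and 3 lower in swi3del and 2 and 3 in snf2del, among them AGA2 (1.59 and 1.43), ASG7 (0.89 and 1.13), BAR1 (-1.80 and -1.54) and STE6 (-0.66 and -0.53).

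Of 15 measured targets of Sum1 and Hst1, 10 were higher and 3 lower in swi3del and 11 and 3 in snf2del, with medians of 1.10 and 1.29. For swi3del the whole gene set had 47.4% called higher and 24.3% lower, and for snf2del 50.2% and 24.6%. HST1 RNA itself did not pass the test in either on the TPM scale. Under scaling to the median gene it was lower and passed in both (-0.34 and -0.29). BNA2, the first enzyme of NAD synthesis from tryptophan, was at 8.16, 9.02 and 9.44 TPM in SWI3 and at 94.1, 97.3 and 90.2 TPM in swi3del. BNA2 was at 7.50, 9.12 and 8.78 TPM in SNF2 and at 103, 98.6 and 100 TPM in snf2del. These groups were far apart, with rises of 3.27 ± 0.09 (adjusted p 4.70e-11) and 3.43 ± 0.11 (adjusted p 2.61e-12). BNA5 rose by 1.76 and 2.24, BNA6 by 1.69 and 1.60 and BNA1 by 1.61 and 1.62. SUM1 itself fell from 57.7 to 40.1 TPM in swi3del (-0.51) and from 55.1 to 43.6 TPM in snf2del (-0.33). The mean level of RFM1, listed with SUM1 among the silencing partners, went the other way, from 18.2 to 29.9 TPM and from 20.2 to 27.0 TPM. SUM1 and RFM1 were picked after their values were seen. In snf2-Q928K 7 of the 15 targets were higher and 3 lower, beside 36.3% and 20.7% of all genes. In snf2-W935R 5 were higher and 1 lower, beside 16.3% and 10.9%. In swi3-E815X 3 were higher and 1 lower, beside 3.06% and 5.77%.

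Genes near chromosome ends, the other region where Sir proteins act, were more often higher than lower in each mutant. Of 217 tested genes within 20 kb of an end, 164 were higher and 17 lower in swi3del (75.6% and 7.83%, beside 47.4% and 24.3% of all genes), with a median of 0.83. In snf2del 187 were higher and 12 lower (86.2% and 5.53%, beside 50.2% and 24.6%), with a median of 1.41. In snf2-Q928K 158 were higher and 13 lower (72.8% and 5.99%, beside 36.3% and 20.7%), and in snf2-W935R 102 and 11 (47.0% and 5.07%, beside 16.3% and 10.9%). In swi3-E815X 20 were higher and 9 lower (9.22% and 4.15%, beside 3.06% and 5.77%). None of the 10 members lies within that distance. The IMP dehydrogenase gene IMD2 rose from 9.33 to 247 TPM and the COS family gene COS1 from 30.0 to 208 TPM in snf2del, where the alcohol dehydrogenase gene ADH7 rose from 0.585 to 39.9 TPM. In swi3del COS4 rose from 16.6 to 64.9 TPM and the protease gene YPS6 from 9.29 to 83.0 TPM. The acid phosphatase genes PHO11 and PHO12, which are near-identical, fell from 488 to 10.2 and from 600 to 12.4 TPM in swi3del, and from 302 to 12.6 and from 371 to 14.7 TPM in snf2del. YHR214C-B fell from 127 to 26.7 TPM in swi3del.

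**Figure D5:**
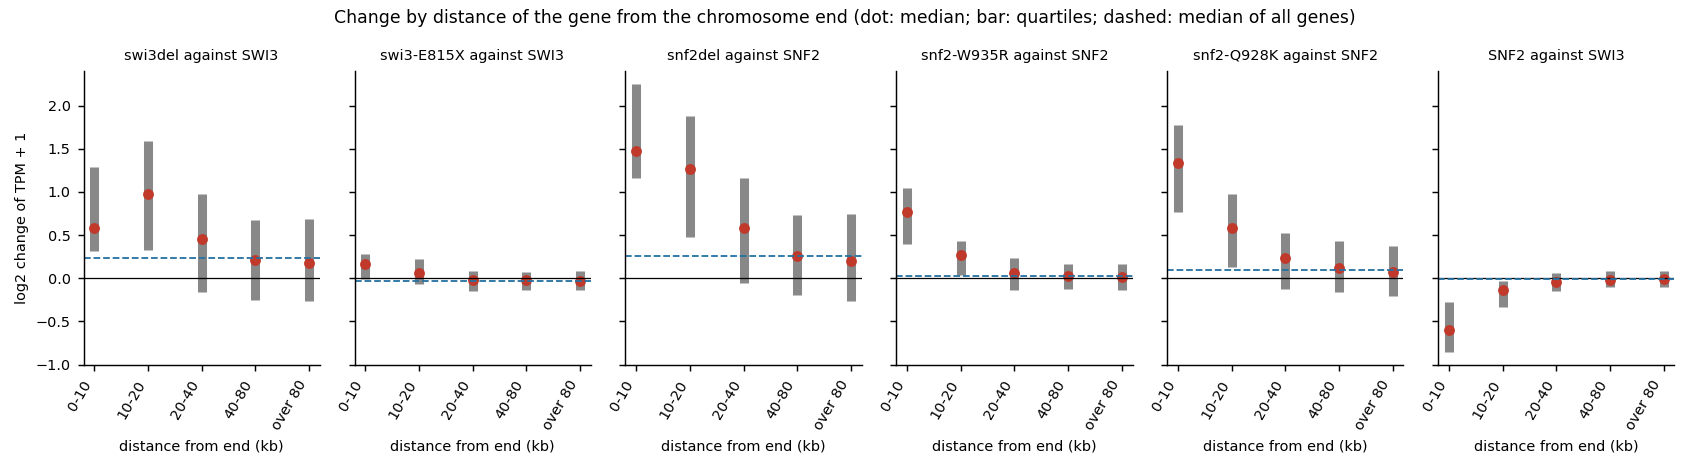
Median (dot) and quartiles (bar) of the change on the log2(TPM + 1) scale (y axis) by distance of the gene from the chromosome end in kb (x axis), with the median of all genes dashed. The medians of the SNF2 mutants are highest in the first 10 kb, at 1.47, 0.77 and 1.33, where the SNF2 wild type is at -0.60 against the SWI3 wild type.

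The wild types differed here as well. Within 20 kb of an end, 76 of 219 genes were lower in SNF2 than in SWI3 and 1 was higher (34.7% and 0.457%), and within 10 kb 58 of 96 were lower and none was higher, with a median of -0.60. Under scaling to the median gene, 59 of the 96 were lower and none was higher. Against the SWI3 wild type fewer genes within 20 kb were called higher and more were called lower. In snf2del 177 of 219 were higher and 19 lower (80.8% and 8.68%, beside 50.7% and 25.1% of all genes). In snf2-Q928K 125 were higher and 21 lower (57.1% and 9.59%, beside 35.1% and 19.8%). In snf2-W935R 41 were higher and 27 lower (18.7% and 12.3%, beside 16.5% and 14.2%), near the shares of all genes. SIR4 RNA was the member higher in SNF2. Its part in the lower level of end genes was not tested.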

How the data were processed

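Polyadenylated RNA of 21 libraries was measured, and all were used. Per the submitters' processing notes, HISAT2, StringTie and DESeq2 were used with the R64 (sacCer3) genome, of which no versions are stated there. The authors deposited a table of TPM per gene and library, from which levels and tests here come. Their 5 comparison tables hold, per the file headers, a mean level (a normalized signal), log2 fold changes with standard errors, a test statistic (a score) and p-values. The authors' mean level was 0.975 to 0.993 times the mean TPM, so it is near the TPM scale, and read counts were not used here.

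Depth is unknown, so no counting interval is given. TPM makes the levels of a library depend on each other. Genes that reached 1 TPM in 3 or more of the fitted libraries were tested with limma 3.58.1 (R 4.3.3, trended and robust) on log2(TPM + 1), a scale that understates changes of low genes. Each family was fitted by itself (9 and 12 libraries), and comparisons across families with all 21. P-values were adjusted by Benjamini-Hochberg over all genes tested and called under 0.05, with 12 comparisons made. The same code was tested on simulated data.

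The members and lists were chosen with earlier results of these data known, and nothing rests on the lists as independent support. Genes are named if they are members, SWI3 or LEU2, the 4 genes of a list with the smallest p in a deletion, the silent mating genes, the 3 neighbours of SIR4 on each side, the 5 genes near ends with the smallest p in each deletion, or the 3 genes most like a member. Of the names in the table, 5951 were matched to the R64 annotation of RefSeq and 456 were not, and the latter are not in counts by position. The alternatives were another pseudocount (0.1 TPM), no filter, scaling to the median gene, plain moderation, a replicate block, each library left out, all libraries in the fit and the other wild type as control.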

Additional observations from a re-analysis of the deposited data

Results flagged for a closer look

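The effect of the SNF2 deletion on SIR4 differed from that of the SWI3 deletion by a test of the difference itself, by -0.79 on the log2 scale (limma, adjusted p 0.00170). SIR4 was lower in all 3 snf2del libraries than in all 3 SNF2 libraries, by -0.89, and its change in swi3del was -0.10. The SNF2 wild type, the control of the first effect, held SIR4 at 38.5 TPM against 19.2 TPM in the SWI3 wild type. A lower difference of effects was also found for 42 of the 47 neighbours of SIR4. Their stretch was set from these data because its genes were higher in SNF2, so that count follows in part from the choice.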

How the results depend on the processing

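Over the alternatives run, 199 counts and values stayed within the limits used and 15 moved. Among the single-gene changes 1425 kept their side of the threshold, 43 lost and 27 gained a call, and 5 were reversed. A change that passed in neither setting was counted as kept even where its sign turned. SIR2, RAP1 and SIR1 kept direction and call in both deletions under all of them. The cause of the changes below was not tested. Within 10 kb of an end 95 genes were tested. The calls were 91 for snf2del (87 higher, 4 lower), 87 for snf2-Q928K (81 and 6), 77 for swi3del (72 and 5), 69 for snf2-W935R (65 and 4) and 16 for swi3-E815X (13 and 3). Of all genes, 50.2%, 36.3%, 47.4%, 16.3% and 3.06% were higher in that order, and 24.6%, 20.7%, 24.3%, 10.9% and 5.77% lower. With the SWI3 wild type as control, snf2-W935R had 1 member called, SAS2 (lower by -0.39), and 68 genes near ends, beside 16.5% of all genes higher and 14.2% lower. With that control SIR4 turned to 0.08 in snf2del, 0.27 in snf2-W935R and 0.12 in snf2-Q928K. Without 1 library at a time, 2 to 4 members were called in snf2-Q928K, 2 without SNF2 replicate 1, SNF2 replicate 3 or snf2-Q928K replicate 1. With the 10 nearest neighbours on each side, the SIR4 values were -1.13 (SNF2), -1.11 (SWI3), -1.01 (swi3-E815X), -0.89 (snf2-Q928K) and -0.77 (snf2-W935R). Under scaling to the median gene, HST1 in swi3-E815X against swi3del turned to 0.23 and SIR3 in snf2-W935R against snf2del to 0.01. The replicate numbers did not pair the libraries: in none of 11 pairs of groups were all correlations over 0.1, and 41 of 126 libraries and groups correlated best with their own number. With the replicate block 6 members were called in swi3del, 7 in snf2del and 3 in snf2-Q928K, where RIF1 did not pass (0.24, adjusted p 0.0617), nor did SIR3 in snf2-W935R against snf2del (-0.21, adjusted p 0.0538). Depth is unknown, and 3 libraries a group limit the precision.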
